A study of Homo sapiens with 2 samples.

Results

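Transcripts of the enzymes that write and erase methyl and acetyl groups on DNA and histones were set side by side in HARA-B4, a subline of a human squamous cell lung cancer line that metastasises strongly to bone, and in HARA, the parental line it came from. The members were all probe sets whose only gene symbol in the platform annotation was KDM, KMT, SETD, HDAC, SIRT, KAT or PRMT followed by a digit, or 1 of a fixed set of other enzymes and subunits (DNMT1, DNMT3A, DNMT3B, TET1, TET2, TET3, UHRF1, EZH1, EZH2, EED, SUZ12, NSD1, NSD2, NSD3, DOT1L, EP300 and CREBBP). There were 246 such probe sets of 89 genes, among 41096 probe sets of 19774 genes with 1 symbol. KDM5D lies on the Y chromosome and is given no value, and 5 of the genes are antisense or divergent non-coding transcripts that carry an enzyme's symbol, which leaves 83 enzyme genes with 240 probe sets.

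The study hybridised biotin-labelled cRNA to 1 Affymetrix array for HARA-B4 and 1 for HARA, from cells of both lines cultured alike in a standard medium with serum and antibiotics. No group carried a treatment or an engineered allele, HARA-B4 is 1 subline, and nothing was repeated, so each line is n = 1. Every value below thus compares a pair of arrays, no p-value can be given, and the spread between cultures is unknown. The deposited values are probe set signals (array intensities), which were compared as log2(HARA-B4) minus log2(HARA), called the log2 difference below.

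Both arrays had a similar level, with a median probe set signal of 16.2 in HARA-B4 and 17.3 in HARA. A signal of 27.1 was taken as background, from sensory receptor genes (olfactory, taste and vomeronasal), which are assumed to be silent in these cells. The 5 squamous markers measured (KRT5, KRT14, DSG3, PKP1 and SERPINB5) were above it on both arrays, with a summed signal of 17719 in HARA-B4 and 13401 in HARA. The 5 fibroblast markers and 3 neuroendocrine markers were below it on both. Among blood, endothelial and glandular lung markers, PTPRC, CD3E, CD14, CDH5, VWF and NAPSA were below it on both arrays too, while the others had signals of at most 56.1 in HARA-B4 and 63.4 in HARA.

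DNA methyltransferases (DNMT) place methyl groups on cytosines, and TET dioxygenases oxidise them as a step towards removal. On histone tails, lysine methyltransferases and demethylases set marks that accompany active or silent genes, Polycomb repressive complex 2 (PRC2) methylates lysine 27 of histone H3 at silenced developmental genes, and acetyltransferases and deacetylases add and remove the acetyl marks of open chromatin. Sirtuins are deacylases that consume NAD, and arginine methyltransferases (PRMT) modify histones, splicing factors and signalling proteins. KMT2D is recurrently mutated in squamous lung cancer, and EZH2 is often abundant in lung tumours.

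Few of these enzymes differed by much between the lines. Of the 83 enzyme genes, 76 were above background on both arrays, 2 on 1 array only and 5 on neither. TET1 and HDAC11 reached 2-fold on the higher side in HARA-B4, EZH2 reached it on the lower side, and the other 73 enzymes above background on both arrays did not reach 2-fold. Across all 10206 genes above background on both arrays, 6.69% reached 2-fold in either direction (3.13% higher and 3.57% lower in HARA-B4), so 3 of 76 is not above the general rate. The median log2 difference of the 76 enzymes was 0.07, against 0.02 for all genes, and their SD was 0.42, against 0.55 for all genes. The difference was under 0.5 in size on the log2 scale for 61 of the 76.

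Where a gene has several probe sets, they measure it more than once on the same pair of arrays. Their spread mixes technical error with differences between the probe sets themselves. It holds no variation between cultures or between repeated arrays. In 4830 genes at least 2 probe sets were above background on both arrays, and the SD of the log2 difference within a gene was 0.30, and over 35 of the enzymes it was 0.34. In 14 of those 35 enzymes all such probe sets had the same sign. The other 41 of the 76 enzymes had 1 such probe set. Signs counted below are those of the brightest probe set of each gene. A difference smaller than 0.59, which is 2 SDs over all those genes, is therefore within what probe sets of 1 gene give, and 9 of the 76 enzymes exceeded it. Among all 10206 genes above background on both arrays, 1958 exceeded it. The SD of 0.34 over the enzymes gives a wider limit, which KDM6A (0.63) and SETD2 (-0.60) did not exceed. At 1.5-fold, 6 enzymes were higher in HARA-B4 (TET1, HDAC11, KDM1B, SIRT6, KDM5C and KDM6A), where 9.56% of all genes were. At that fold 3 enzymes were lower (EZH2, PRMT9 and SETD2), where 10.2% of all genes were.

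**Figure D1:**
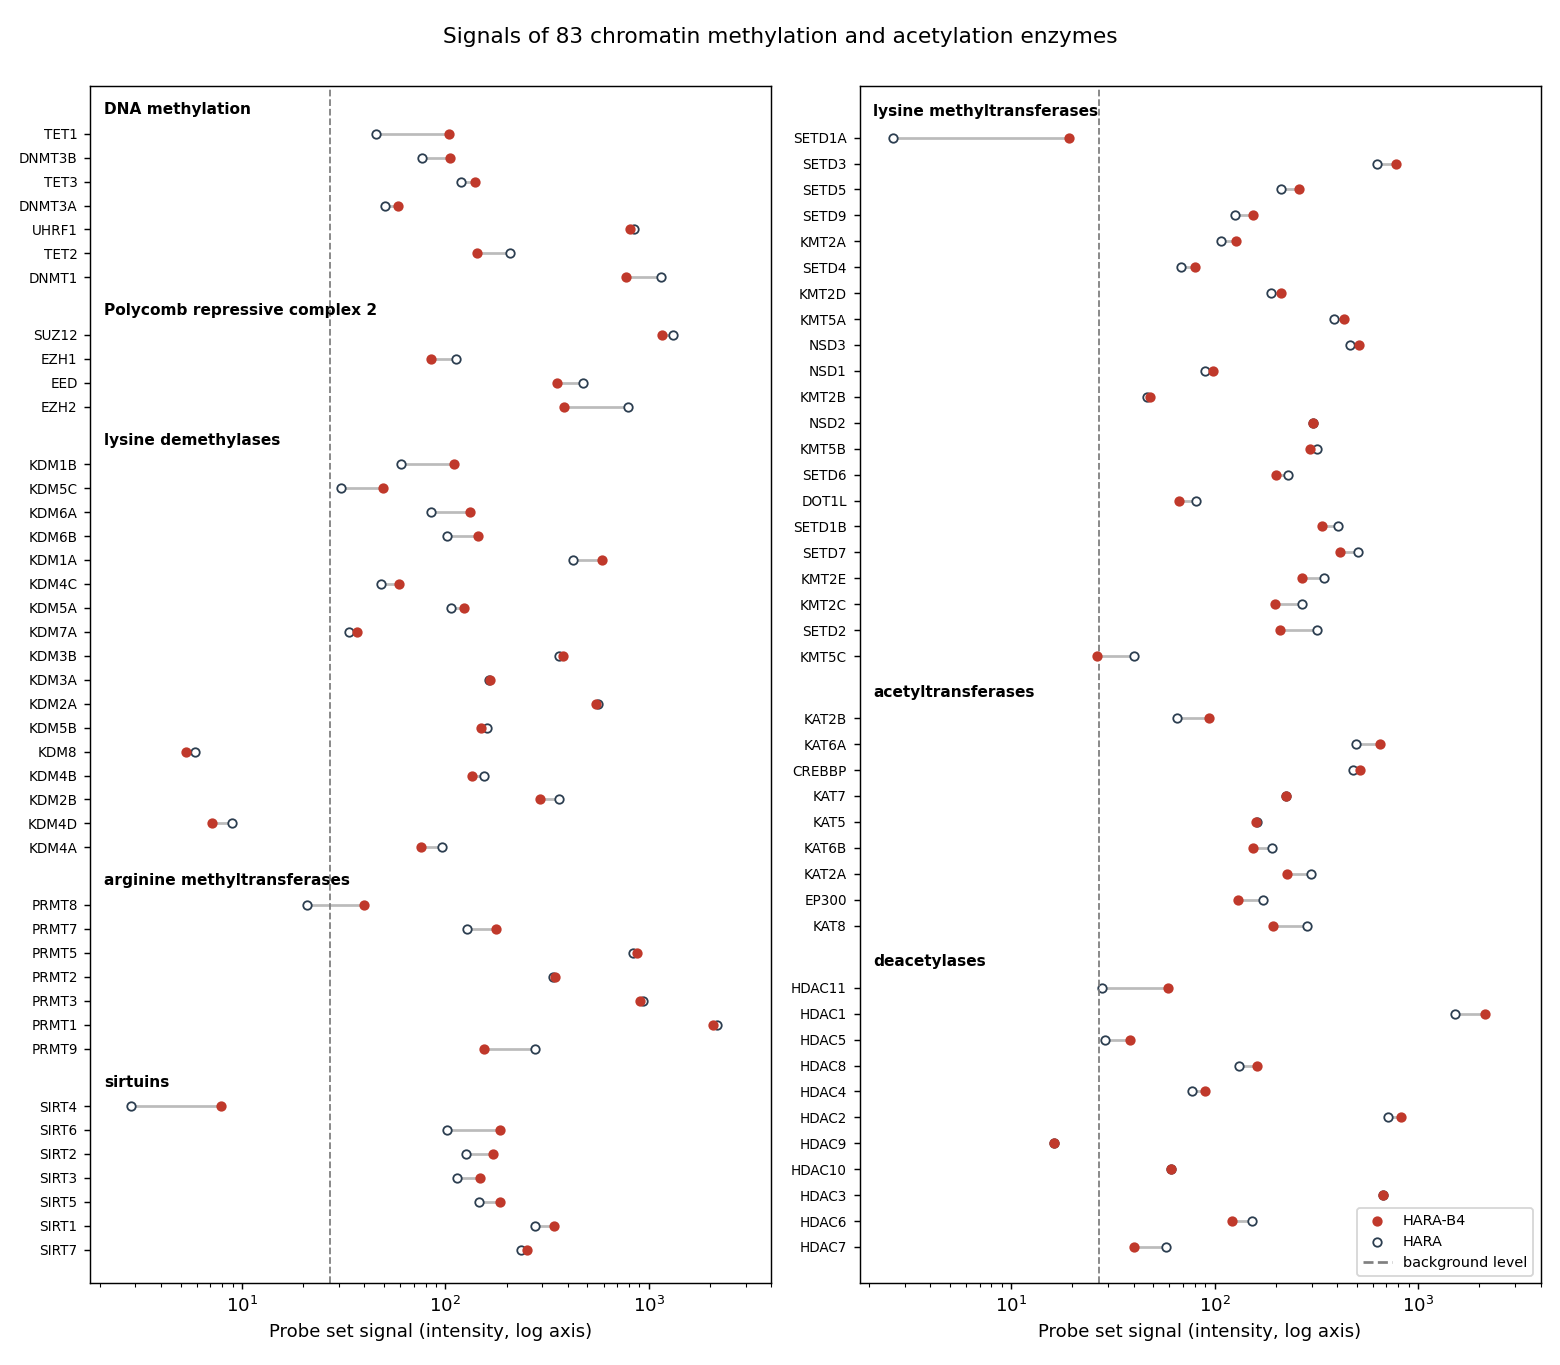
Signals of the 83 enzyme genes on the HARA-B4 array (filled red points) and the HARA array (open points), on a log axis and grouped by role, with the background signal of 27.1 as a dashed line. The longest gaps to the right of the line belong to TET1 (105 in HARA-B4, 45.6 in HARA), HDAC11 (59.2 and 27.9) and EZH2 (383 and 791), while the long lines of SETD1A and SIRT4 lie wholly below background.

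The promoters of the 3 enzymes at 2-fold are shown because these genes carry the differences described first. Each is the 250 bases before the RefSeq start that lies farthest 5′ in the gene (GRCh38.p14), 5′ to 3′ on the gene's strand. Capitals mark GC boxes (GGGCGG on either strand, overlapping matches counted), the motif of the Sp1 family.
TET1, chr10:68560087-68560336, plus strand: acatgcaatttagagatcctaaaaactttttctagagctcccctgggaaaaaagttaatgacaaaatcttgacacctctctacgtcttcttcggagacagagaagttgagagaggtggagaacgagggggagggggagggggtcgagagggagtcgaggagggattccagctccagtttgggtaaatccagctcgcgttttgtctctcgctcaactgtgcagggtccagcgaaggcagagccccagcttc
HDAC11, chr3:13480056-13480305, plus strand: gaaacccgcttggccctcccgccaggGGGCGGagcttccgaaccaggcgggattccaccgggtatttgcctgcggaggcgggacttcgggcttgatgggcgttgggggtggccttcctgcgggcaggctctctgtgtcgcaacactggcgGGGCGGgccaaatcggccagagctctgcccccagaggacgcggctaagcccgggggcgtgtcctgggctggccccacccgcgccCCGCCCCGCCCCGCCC
EZH2, chr7:148884292-148884541, minus strand: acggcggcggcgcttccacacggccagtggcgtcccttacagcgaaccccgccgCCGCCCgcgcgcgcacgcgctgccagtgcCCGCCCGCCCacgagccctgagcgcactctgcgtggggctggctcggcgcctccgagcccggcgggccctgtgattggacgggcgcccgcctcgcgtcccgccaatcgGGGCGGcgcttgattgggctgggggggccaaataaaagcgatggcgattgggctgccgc
The TET1 window holds 9 CG dinucleotides and 0 GC boxes. The HDAC11 window holds 24 CG and 5 GC boxes, and the EZH2 window 38 CG and 4 GC boxes. A GC box is found in 64.5% of the promoters of 76 enzymes that matched the RefSeq table and in 42.2% of the promoters of all 27305 genes there, with a median of 23.5 and 10 CG dinucleotides. The letters describe the windows and say nothing of binding or of methylation in these cells.

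The enzymes of DNA methylation were above background on both arrays in all 7 cases and differed in both directions. TET1, a dioxygenase that oxidises 5-methylcytosine, had a signal of 105 in HARA-B4 and 45.6 in HARA (log2 difference 1.20, 2.30-fold). A difference of that size or larger was found in 4.39% of all genes. Its other probe set was below background on both arrays, at 22.5 in HARA-B4 and 6.47 in HARA. TET1 was thus higher in HARA-B4 by the 1 probe set that measured it on both arrays.

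The other TET enzymes did not share this difference. TET2 stood at 143 in HARA-B4 and 207 in HARA (-0.54), and TET3 at 139 and 119 in the same order (0.22). A second TET3 probe set was above background in HARA-B4 only, at 37.0 against 19.0 in HARA. Differences of the 3 dioxygenases therefore ran from -0.54 to 1.20.

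DNMT1, the maintenance methyltransferase that copies methylation after replication, stood at 777 in HARA-B4 and 1144 in HARA (-0.56). UHRF1, which brings DNMT1 to hemimethylated DNA, stood at 804 in HARA-B4 and 842 in HARA (-0.07). Neither reached 2-fold, and the DNMT1 value lies just inside the spread of 2 within-gene SDs. The de novo methyltransferases were close to equal, DNMT3B at 106 in HARA-B4 and 77.0 in HARA (0.46), and DNMT3A at 58.8 and 50.8 in the same order (0.21). The list's median was 0.21.

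All 4 measured core genes of PRC2 had negative differences, from -1.05 to -0.16, and 1 of them reached 2-fold. EZH2, the catalytic subunit of dividing cells, had a signal of 383 in HARA-B4 and 791 in HARA (log2 difference -1.05, 2.07-fold lower), and 6.02% of all genes had a difference at least as large. The annotation gives EZH2 1 probe set, of the _s_at kind that can match several transcripts, so its size has no second probe set behind it.

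EED, the subunit that reads the trimethyl mark, stood at 353 in HARA-B4 and 474 in HARA (-0.42). SUZ12, the scaffold subunit, stood at 1168 in HARA-B4 and 1309 in HARA (-0.16). EZH1, the catalytic paralog of resting cells, stood at 85.2 in HARA-B4 and 113 in HARA (-0.40). EZH1 has 4 probe sets above background on both arrays, and all of them were lower in HARA-B4, from -0.88 to -0.25. Across all genes above background on both arrays 47.9% had a negative difference, and the list's median was -0.41.

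No accessory partner of PRC2 reached 2-fold. Of 8 accessory genes above background on both arrays 6 had positive differences, PHF1 among them at 0.00, and the median was 0.28. That median was 0.10 with the mean of each gene's probe sets and 0.00 without _x_at and _s_at probe sets, and RBBP4, a histone-binding subunit at 0.36, had another probe set at -1.11. JARID2, a DNA-binding accessory subunit, stood at 195 in HARA-B4 and 112 in HARA (0.80), although another of its probe sets differed by 0.00. AEBP2, another accessory subunit, stood at 809 in HARA-B4 and 1146 in HARA (-0.50). PRC1, the complex that binds the mark and ubiquitinates histone H2A, had 14 genes above background on both arrays, 0 of them at 2-fold, with a median of -0.03.

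The demethylases that remove the PRC2 mark had positive differences. KDM6A (UTX) stood at 132 in HARA-B4 and 85.6 in HARA (0.63), and its 3 probe sets above background ran from 0.18 to 0.63. KDM6B (JMJD3) stood at 145 in HARA-B4 and 101 in HARA (0.51), with a second probe set at 0.18. Neither reached 2-fold. Only the KDM6A value of 0.63 exceeded 0.59, and it too lies within 2 SDs when the SD of 0.34 over the enzymes is used. The other probe sets of KDM6A and both of KDM6B lie within the spread of probe sets of 1 gene.

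**Figure D2:**
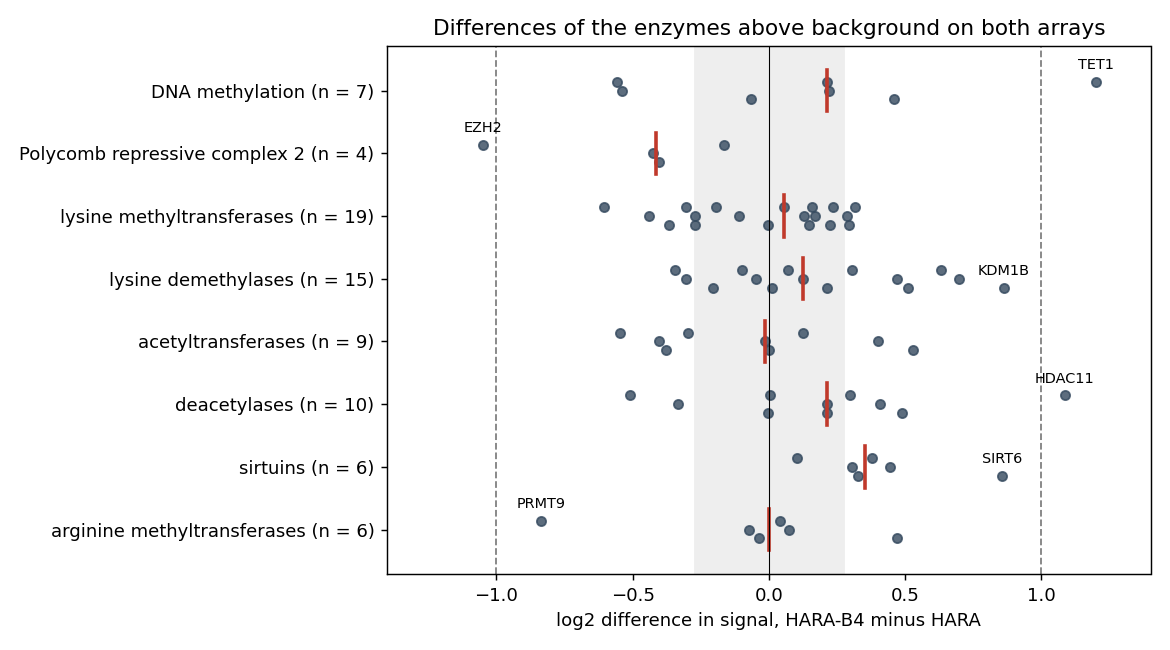
The log2 difference (HARA-B4 minus HARA) of the 76 enzymes above background on both arrays, 1 point per gene by role, with the median of each group in red, the 2-fold limits dashed, and the range between the quartiles of all genes (-0.27 to 0.28) shaded. All 4 PRC2 points lie left of 0 and all 6 sirtuin points right of it, and 3 genes in all lie beyond a dashed line.

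No lysine demethylase reached 2-fold in either direction. Of 17 measured, KDM6A and KDM6B among them, 15 were above background on both arrays, 10 of these had positive differences and the median was 0.13. KDM1B, a flavin-dependent demethylase of histone H3 lysine 4, had the largest difference, at 110 in HARA-B4 and 60.7 in HARA (0.86), from the 1 probe set above background. Its paralog KDM1A (LSD1) stood at 591 in HARA-B4 and 426 in HARA (0.47).

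KDM5C, a demethylase of trimethylated H3 lysine 4, gave opposite values by probe set. Its brighter probe set had 49.7 in HARA-B4 and 30.6 in HARA (0.70), and the other 28.6 in HARA-B4 and 41.2 in HARA (-0.53). KDM5B, of the same family, stood at 149 in HARA-B4 and 160 in HARA (-0.10), and its 3 probe sets ran from -0.10 to 0.55. No direction can be given for KDM5C. KDM2A, a demethylase of H3 lysine 36, stood at 548 in HARA-B4 and 566 in HARA (-0.05), while another of its probe sets differed by 0.63. KDM4D and KDM8 were below background on both arrays.

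Lysine methyltransferases were close to equal in both lines, with 0 of 19 genes above background on both arrays at 2-fold, a median of 0.06 and an SD of 0.28 over genes. SETD2, which trimethylates H3 lysine 36, stood at 210 in HARA-B4 and 319 in HARA (-0.60), with a second probe set at -0.34. KMT2C, a methyltransferase of enhancers, stood at 198 in HARA-B4 and 269 in HARA (-0.44). A dimmer KMT2C probe set reached 2-fold, at 37.2 in HARA-B4 and 75.1 in HARA (-1.01), and all 3 of its probe sets above background on both arrays were lower in HARA-B4. KMT2D, the paralog of KMT2C, stood at 213 in HARA-B4 and 189 in HARA (0.17), with other probe sets down to -0.27.

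Other members of the group differed less, or differently by probe set. KMT2E stood at 269 in HARA-B4 and 347 in HARA (-0.37), and its other probe sets differed by -0.37 and 0.03, the last from the only one not of the _s_at or _x_at kind. SETD3, which methylates actin, stood at 780 in HARA-B4 and 627 in HARA (0.31). NSD1, which dimethylates H3 lysine 36, stood at 98.1 in HARA-B4 and 89.7 in HARA (0.13). KMT2A (MLL1) stood at 127 in HARA-B4 and 108 in HARA (0.24), but its 5 probe sets above background on both arrays ran from -0.35 to 0.97, the widest range of any enzyme. The 6 NSD2 probe sets ran from -0.91 to 0.30, with the brightest at 304 in HARA-B4 and 305 in HARA. The 5 NSD3 probe sets ran from -0.47 to 0.52, with the brightest at 514 in HARA-B4 and 464 in HARA. No direction can be given for KMT2A, NSD2 or NSD3. KMT5C, which trimethylates H4 lysine 20, was above background in HARA only, at 26.5 in HARA-B4 against 40.4 in HARA, which is at least 1.49-fold lower in HARA-B4, and SETD1A was below it on both arrays.

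**Figure D3:**
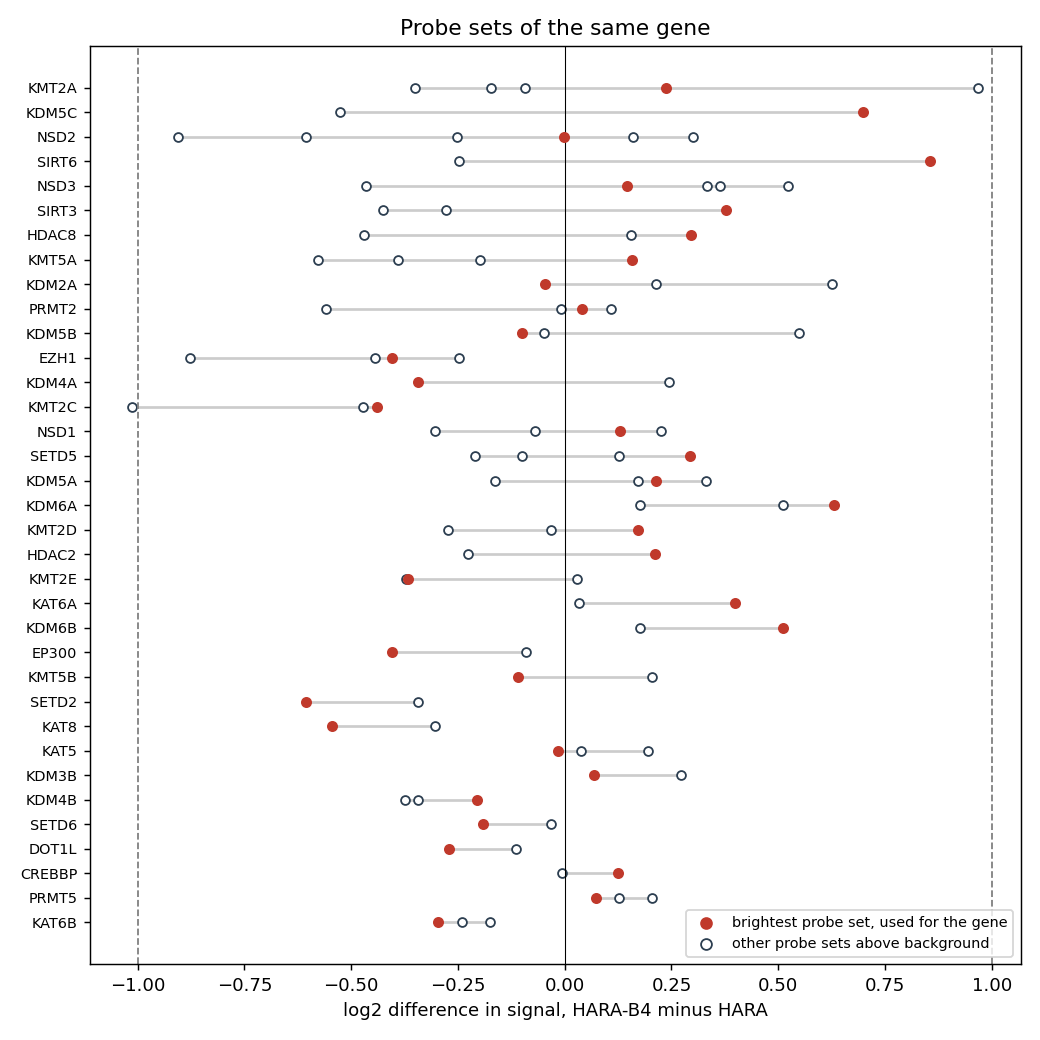
The log2 difference (HARA-B4 minus HARA) of each probe set above background on both arrays for the 35 enzymes with several of them, 1 gene per row, ordered by range. The brightest probe set, used for the gene, is red, and the dashed lines mark 2-fold. KMT2A, KDM5C, NSD2 and SIRT6 have points on both sides of 0, while all points of EZH1 and KMT2C lie below 0 and those of KDM6A and KDM6B above it.

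The 9 acetyltransferases were all above background on both arrays, 0 reached 2-fold, and the median was -0.01. EP300 (p300), a coactivator that acetylates enhancers, stood at 130 in HARA-B4 and 172 in HARA (-0.40), with a second probe set at -0.09. Its paralog CREBBP (CBP) stood at 521 in HARA-B4 and 477 in HARA (0.13). KAT8, which acetylates H4 lysine 16, stood at 195 in HARA-B4 and 284 in HARA (-0.55), with a second probe set at -0.30. The paralogs of the SAGA and ATAC complexes differed in sign, KAT2B (PCAF) at 94.1 in HARA-B4 and 65.2 in HARA (0.53) and KAT2A (GCN5) at 228 and 296 in the same order (-0.38). KAT6A, the catalytic subunit of a H3 acetyltransferase complex, stood at 652 in HARA-B4 and 494 in HARA (0.40), and its second probe set differed by 0.03.

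Among the classical deacetylases HDAC11 was the member at 2-fold. HDAC11, the single class IV enzyme and a fatty-acid deacylase, stood at 59.2 in HARA-B4 and 27.9 in HARA (log2 difference 1.08, 2.12-fold). A difference of that size or larger was found in 5.53% of all genes. The HARA value lies only 0.04 above background on the log2 scale, and the other HDAC11 probe set was below background on both arrays, at 5.21 in HARA-B4 and 20.4 in HARA. The size is therefore uncertain, and the direction rests on 1 probe set.

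HDAC1, HDAC2 and HDAC3, the class I enzymes that sit in the main corepressor complexes, did not reach 2-fold. HDAC1 stood at 2138 in HARA-B4 and 1523 in HARA (0.49), HDAC2 at 827 and 714 in the same order (0.21, with a second probe set at -0.23), and HDAC3 at 670 and 672 (0.00). Among class II enzymes, HDAC7 stood at 40.4 in HARA-B4 and 57.5 in HARA (-0.51). HDAC9 was below background on both arrays in all 5 of its probe sets. Over the 10 deacetylases above background on both arrays, 7 had positive differences and the median was 0.21.

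The sirtuins had positive differences in all 6 genes above background on both arrays, from 0.10 to 0.86, with a median of 0.35, and 0 reached 2-fold. A positive difference was found in 52.1% of all genes above background on both arrays. SIRT1, the nuclear enzyme that deacetylates p53 among other proteins, stood at 342 in HARA-B4 and 277 in HARA (0.30), and SIRT2, which deacetylates tubulin, at 172 and 127 in the same order (0.44). SIRT6, which deacetylates histone H3, stood at 185 in HARA-B4 and 102 in HARA (0.86) by a probe set of the _x_at kind. Its other probe set had 111 in HARA-B4 and 131 in HARA (-0.25). SIRT3, the mitochondrial deacetylase, likewise had 149 in HARA-B4 and 114 in HARA on its brightest probe set (0.38) and negative values on the other probe sets (-0.28 and -0.42). The uniform sign of the group thus depends on the probe set for SIRT3 and SIRT6. SIRT4 was below background on both arrays.

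The arginine methyltransferases were mostly close to equal, with a median of 0.00 over 6 genes above background on both arrays and 0 at 2-fold. PRMT1, the main asymmetric dimethyltransferase, stood at 2061 in HARA-B4 and 2167 in HARA (-0.07). PRMT5, the main symmetric enzyme, stood at 879 in HARA-B4 and 835 in HARA (0.07), and its 3 probe sets ran from 0.07 to 0.21. PRMT9, which methylates the splicing factor SF3B2, stood apart from these at 154 in HARA-B4 and 275 in HARA (-0.84), just short of 2-fold, from its only probe set. PRMT7, a monomethyltransferase, stood at 177 in HARA-B4 and 128 in HARA (0.47). PRMT8 was above background in HARA-B4 only, at 39.7 against 21.0 in HARA, which is at least 1.46-fold higher.

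Of the non-coding transcripts, the divergent KDM7A-DT stood at 53.7 in HARA-B4 and 39.9 in HARA (0.43) and PRMT5-AS1 at 32.9 and 28.9 in the same order (0.19). The other 3 were below background on both arrays.

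Few partner genes of the complexes reached 2-fold. Across all genes above background on both arrays 6.69% did, so 0 or 1 gene in a list this short does not set the list apart. None of 12 subunits of the COMPASS complexes that carry H3 lysine 4 methyltransferases reached 2-fold (median -0.02), nor did any of 28 subunits of acetyltransferase complexes (-0.10) or of 7 further demethylases (-0.01). Of 14 methyltransferases named outside the symbol pattern, MECOM, a zinc finger factor of the PRDM family, was the 1 at 2-fold, at 98.5 in HARA-B4 and 252 in HARA (-1.35, second probe set -1.11). Among corepressor scaffolds of the deacetylases, 0 of 19 above background on both arrays reached 2-fold (median 0.04), and TBL1X, a subunit of the NCoR complex, was above background in HARA only and at least 2.17-fold lower in HARA-B4. A bound of 2-fold was reached by 16.8% of all 1289 genes above background on 1 array only. Of 10 methyl-CpG and demethylation partners 0 reached 2-fold (median -0.16), while APOBEC3B, a DNA cytidine deaminase, was above background in HARA-B4 only and at least 2.87-fold higher. Its HARA signal was 27.10, just under background. BRD9, a bromodomain subunit of a BAF complex, was the 1 of 6 acetyl-lysine readers at 2-fold, at 732 in HARA-B4 and 221 in HARA (1.72). Its value comes from the 1 probe set above background on both arrays, of the _s_at kind. BRDT, another of these readers, stood just short of 2-fold the other way, at 72.3 in HARA-B4 and 141 in HARA (-0.97).

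EZH2, DNMT1 and UHRF1 are known to be made mostly in dividing cells, so proliferation genes are given beside them. Of 20 such genes, all above background on both arrays, 0 reached 2-fold and the median was 0.02. PCNA, the sliding clamp of replication, stood at 3394 in HARA-B4 and 3823 in HARA (-0.17), and the proliferation marker MKI67 at 527 and 420 in the same order (0.33).

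Neighbouring genes on the chromosome often differed with the enzymes. For each enzyme, the median log2 difference of its 24 nearest genes above background on both arrays was taken, 12 on each side in RefSeq order where the chromosome allowed. Around EZH2 on chromosome 7 it was -0.51, with 2 of 24 neighbours positive, and EZH2 itself stood 0.54 below it, at -1.05. Around KMT2C on the same chromosome it was -0.69, the lowest of all the enzymes, and 9 of the 24 neighbours were at least 2-fold lower in HARA-B4. KDM7A, also on chromosome 7, had neighbours at -0.68 and differed by 0.13, at 36.6 in HARA-B4 and 33.6 in HARA.

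Low neighbours were seen around some other enzymes with negative differences, but not around all, as with EP300 (-0.40, neighbours at 0.25). TET2 on chromosome 4 had neighbours at -0.48, PRMT9 on chromosome 4 at -0.39, DNMT1 on chromosome 19 at -0.37 and SETD2 on chromosome 3 at -0.31. TET2 (-0.54) and DNMT1 (-0.56) stood only 0.06 and 0.19 below their neighbours. On the other side DNMT3B on chromosome 20 (0.46) had neighbours at 0.37, the highest of the enzymes. TET1 on chromosome 10 and HDAC11 on chromosome 3 stood 0.96 and 0.97 above neighbours at 0.24 and 0.11. The neighbours of EED and EZH1 were at 0.04 and 0.13, so these PRC2 genes were lower than their surroundings.

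Of the 10 enzymes with the lowest neighbour medians 9 had negative differences, and of the 10 with the highest 8 had positive ones. The other 56 enzymes had 21 negative and 35 positive differences. The sign of the neighbour median was shared by 51 of the 76 enzymes (67.1%) and by 63.4% of 10177 genes. Over the 76 enzymes Pearson's r with the neighbour median was 0.45 and Spearman's rho 0.37. Over 10177 genes in all r was 0.40 and rho 0.37, so the enzymes were like other genes in this. All points share the same 2 arrays, and 17 pairs of enzymes share neighbours, UHRF1 and KDM4B as many as 22 of 24. Copy number was not measured, and its part in these differences was not tested.

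**Figure D4:**
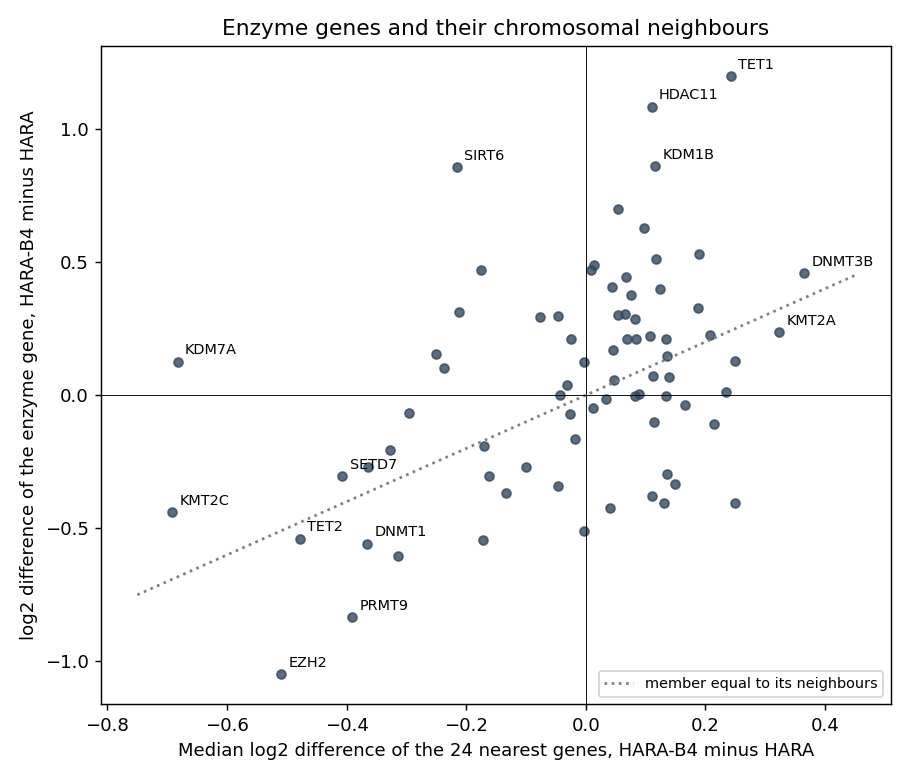
The log2 difference of each of the 76 enzyme genes (vertical axis) against the median log2 difference of its 24 nearest genes on the chromosome (horizontal axis), both HARA-B4 minus HARA, with selected genes named and a dotted line where both are equal. EZH2, PRMT9, TET2, DNMT1 and KMT2C lie in the lower left with low neighbours, while TET1, HDAC11, KDM1B and SIRT6 lie well above the dotted line.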

How the data were processed

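Total RNA of HARA-B4 and HARA was measured on 1 Affymetrix array each. The authors deposited 1 intensity (signal) on a linear scale for each probe set, made with Affymetrix Expression Console per the submitters' processing notes. How that program summarised, corrected and scaled the probes is not stated in the labels. The intensities were turned into log2 values with no further scaling. The number of arrays limits the precision.

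Genes were named from the platform annotation, where 41096 of 54674 probe sets had 1 symbol, 1801 several and 11777 none, and 41042 matched RefSeq (GRCh38.p14) by Entrez ID. No member changed its symbol by that match. 1 further PRMT gene is not reported here. Background was the 95th percentile, over both arrays, of 165 receptor probe sets (4.76 on the log2 scale). A gene with several probe sets was represented by the brightest, by mean log2 signal over the arrays. With both arrays above background, it was counted at a log2 difference of at least 1 in size. For a gene above it on 1 array only, the other array was set to background, so the fold is a lower bound. No p-value can be had with 1 array per line.

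Enzymes were named at 2-fold, among the 3 largest differences or as the brightest of a role, among the 5 widest probe set ranges, or from a fixed panel. Partner genes were named at 2-fold. Others were named after their values were seen. The members and lists were chosen with earlier results of these data known. Python 3.11.15, numpy 2.4.6, pandas 2.3.3 and statsmodels 0.14.6 (lowess) were used, and the scripts were tested on simulated data. Alternatives were other scalings (median, quantile, lowess), background lower or higher by 1 on the log2 scale, averaging of a gene's probe sets, leaving out _x_at and _s_at probe sets, a pseudocount of 16, 1.5-fold and 3-fold limits, a call by every probe set, updated symbols, and 14 or 50 neighbours. The averaging took only probe sets above background on at least 1 array.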

Additional observations from a re-analysis of the deposited data

How the results depend on the processing

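EZH2 stayed at least 2-fold lower in HARA-B4 under each scaling and with the pseudocount, from -1.07 to -1.02. The other backgrounds and the probe set mean could not change its value, because EZH2 has 1 probe set, well above background on both arrays. Without _x_at and _s_at probe sets EZH2 has no value and 0 enzymes were 2-fold lower. TET1 and HDAC11 stayed 2-fold higher under each scaling. The lower background, the mean of probe sets and leaving out _x_at and _s_at probe sets could not change their values. For each gene the mean held the same 1 probe set, because the other was below background on both arrays and was not averaged. Neither of the probe sets used is of the _x_at or _s_at kind. With the background higher by 1, and with log2(signal + 16), 0 enzymes were 2-fold higher: TET1 had a value of 0.95 (a lower bound) and 0.97, HDAC11 of 0.13 (a lower bound) and 0.78. The higher background also left HDAC7 measured on the HARA array alone, its difference of -0.51 becoming a bound of -0.08. At 1.5-fold 6 enzymes were higher and 3 lower, and at 3-fold 0 and 0. The median of the enzymes ran from 0.01 to 0.13. Lists of partner genes moved under 2 alternatives: the median of other methyltransferases was -0.30 with the mean of probe sets, and that of acetyl-lysine readers -0.46 without _x_at and _s_at probe sets, where fewer probe sets were left. The other role and partner medians moved by less than 0.30, the SD within a gene, though some lost their size or changed sign. That of the PRC2 accessory genes came to 0.00 without _x_at and _s_at probe sets. The DNA methylation median of 0.21 became -0.07 with the higher background. The deacetylase median of 0.21 became -0.0006 with the mean of probe sets. The neighbour medians of the 76 enzymes also moved by less than 0.30 with 14 or 50 neighbours. No replicate could be left out and no paired analysis was possible because each line has 1 array.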
